A study of Mus musculus with 6 samples.

Results

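The 9 genes described here encode steps of the insulin signal and the glucose uptake and storage that follow it: Insr, Irs1, Irs2, Akt1, Akt2, Tbc1d4, Slc2a4, Cav1 and Gys1. They were taken by symbol from the array's platform annotation, which gives them 15 of the 45281 probes on the array, and they are 9 of the genes of one pathway rather than a set found by a measurement. The samples are subcutaneous fat of FVB males at 12 weeks of age, hybridised to single-channel Illumina bead arrays, with 3 arrays from wild type mice and 3 from mitoNEET-transgenic mice, and the labels give no other treatment. MitoNEET, encoded by Cisd1, sits in the outer membrane of mitochondria and carries an iron-sulfur cluster. The sample descriptions of both groups carry the prefix aP2, a name of the Fabp4 promoter that is often used to drive transgenes in fat; the labels do not spell out the construct. Whether the arrays come from different animals is not stated, so p-values here reflect only the spread between samples, which may be technical, and 3 arrays a group limit the precision.

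Insulin binds the insulin receptor, which phosphorylates the adaptor proteins IRS1 and IRS2. These recruit phosphatidylinositol 3-kinase, and the lipid it makes activates the AKT kinases. AKT phosphorylates TBC1D4 (AS160), which otherwise holds GLUT4 vesicles inside the cell, so that GLUT4, the product of Slc2a4, reaches the plasma membrane and glucose enters. In adipocytes part of the receptor lies in caveolae, membrane pits built on caveolin-1 (Cav1), and part of the glucose is stored as glycogen by glycogen synthase (Gys1).

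Cav1, Slc2a4, Akt2 and Gys1 were 1.41-fold to 1.62-fold higher in transgenic tissue, and no measured member was lower at the same threshold. In 6 fits that each leave out 1 array, Cav1 lost its call in 1, Slc2a4 in 4, and Akt2 and Gys1 in 5 each. With background subtracted none of these 4 genes passed. Insr did not pass the test and its estimate was near 0, on a probe with no transcript listed. Irs2 was split among the wild type arrays, and the probes for Irs1, Tbc1d4 and Akt1 read at or near background. Values are the deposited normalized intensities, differences are on the log2 scale, transgenic minus wild type, each with its standard error (SE) from limma's moderated test, and a call means a Benjamini-Hochberg adjusted p under 0.05 over 14962 features. A probe was kept when it exceeded an intensity of 55.6, a threshold just above the background level of 47.8, on at least 3 of 6 arrays. By that filter 11 of the 15 probes and 8 of the 9 genes were measured, each gene by its kept probe of highest mean. Of these 8 genes 4 were called higher, beside 5.11% of all features, and 0 were called lower, beside 8.26% of all features; at an unadjusted p under 0.05 in limma, 4 were higher and 1 lower. The median log2 difference was 0.45 over the 8 genes and 0.03 over all features.

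**Figure D1:**
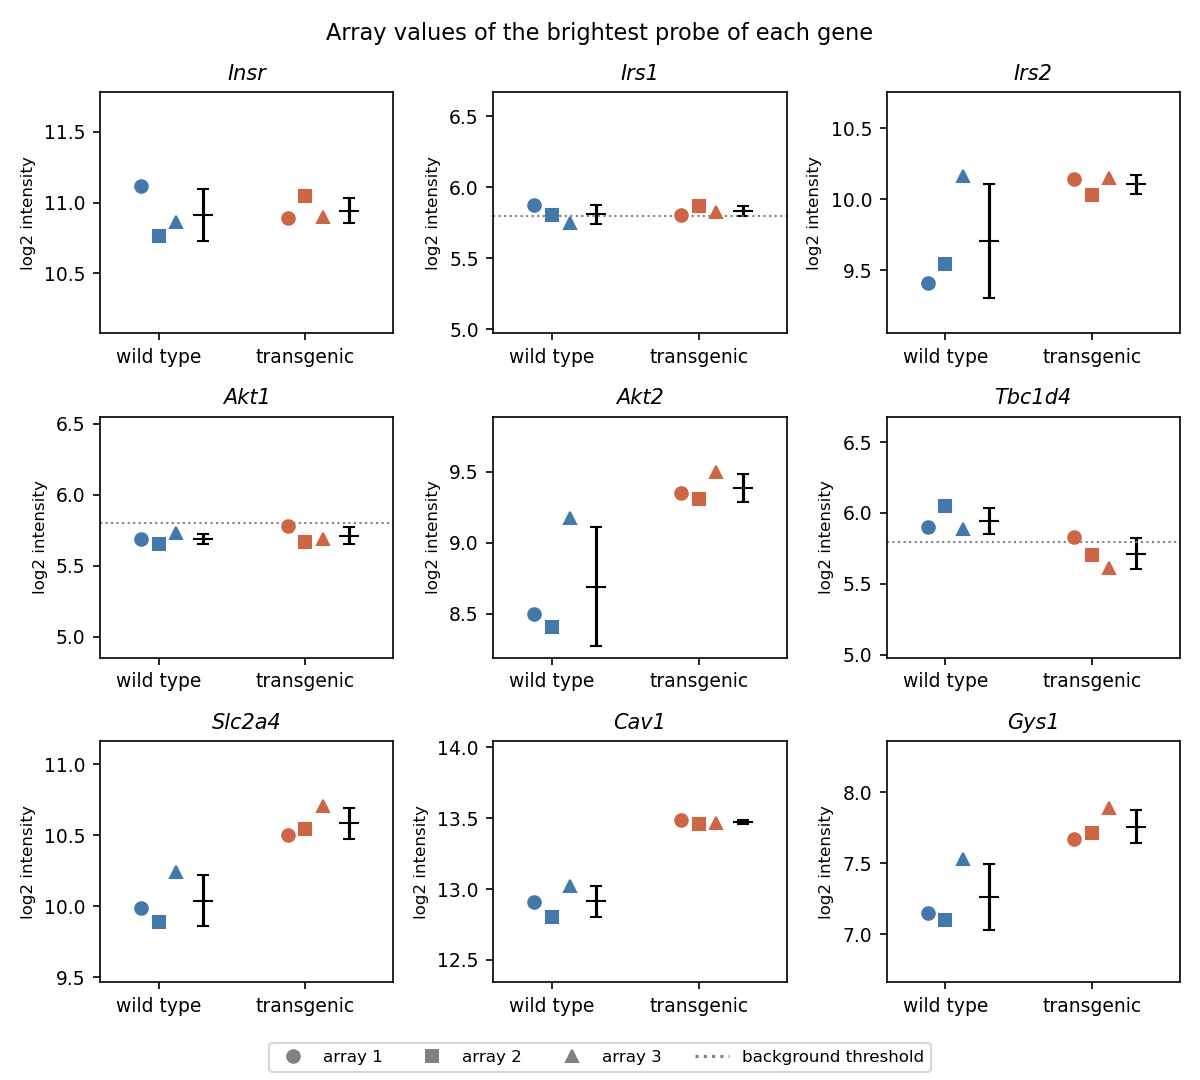
Log2 intensity of the brightest probe of each gene on the 3 wild type (blue) and 3 transgenic (orange) arrays, with the group mean and SD of the log2 values in black; the dotted line, where it falls in the panel, is the background threshold of 55.6 in intensity. The transgenic arrays lie above all wild type arrays for Akt2, Slc2a4, Cav1 and Gys1, wild type array 3 lies among the transgenic arrays for Irs2, and Irs1, Akt1 and Tbc1d4 lie at the threshold.

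At the top of the pathway the receptor gene did not pass the test. The Insr probe of highest mean (Entrez Gene 16337) read 2221, 1738 and 1863 on wild type arrays 1, 2 and 3, and 1894, 2111 and 1908 on the transgenic arrays. The annotation lists no transcript for that probe, so its reading as Insr rests on the gene assignment alone. The groups overlapped throughout, with wild type arrays the highest and the lowest of the 6. The log2 difference was 0.03 (SE 0.11, 95% interval −0.22 to 0.28, limma adjusted p = 0.89), so the interval still allows a rise of up to 0.28. A dimmer Insr probe, annotated to a cDNA clone, read from 60.3 to 82.2 and differed by −0.14 (SE 0.11), and the probe annotated to the RefSeq transcript read from 46.4 to 57.0 and was not measured above background.

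The adaptor genes could be followed only for Irs2. Irs2, the adaptor that is prominent in liver and also present in fat, read 680.3, 746 and 1145 on the wild type arrays and 1131, 1046 and 1133 on the transgenic arrays. Wild type arrays 1 and 2 were low, whereas wild type array 3 was the highest of all 6, so the groups overlapped. The difference was 0.40 (SE 0.18, 95% interval −0.0023 to 0.81, limma adjusted p = 0.161; exact permutation p = 0.4, two-sided, where 0.1 is the smallest value that 3 against 3 arrays allow). With 1 array left out it ran from 0.25 without wild type array 1 (adjusted p = 0.351) to 0.63 without wild type array 3 (SE 0.10, adjusted p = 0.0128), the latter being the 1 of 6 exclusions in which it was called. The single Irs1 probe, for the adaptor best known in muscle and fat, read 58.7, 56.0 and 53.6 in wild type and 55.9, 58.5 and 56.7 in transgenic tissue, close to the background threshold throughout. From such readings low expression and a poor probe cannot be told apart. The within-array difference of Irs1 and Irs2 changed by −0.38 (exact permutation p = 0.4, 1 of 2 pairs compared, Benjamini-Hochberg adjusted p = 0.4), and with Irs1 at background that value reads Irs2 alone.

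Of the AKT kinase genes Akt2, the isoform tied to insulin-stimulated glucose uptake, was higher. Its probe of highest mean (Entrez Gene 11652) read 361, 338 and 577 on the wild type arrays and 654, 634 and 723 on the transgenic arrays. The groups did not overlap, but wild type array 3 stood nearer to the transgenic arrays than to the other wild type arrays. The mean rose from 425 ± 132 to 670.1 ± 46.5 (SD, n = 3), a log2 difference of 0.70 (SE 0.19, limma adjusted p = 0.044), or 1.62-fold. A second, dimmer Akt2 probe read 65.5, 61.7 and 69.6 against 88.4, 78.6 and 92.7, a difference of 0.40 (SE 0.10, adjusted p = 0.0318 over all kept probes tested separately). On that probe wild type array 3 lay close to the other wild type arrays. With 1 array left out the brighter probe kept its call only without wild type array 3 (log2 0.94, adjusted p = 0.00718); the adjusted p was 0.0956 without wild type array 1, 0.147 without wild type array 2, then 0.105, 0.110 and 0.112 without transgenic arrays 1, 2 and 3.

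Akt1, the more widely expressed isoform, was represented by 1 probe that read from 50.4 to 54.9 and was above the threshold on none of the 6 arrays. The within-array difference of Akt2 and Akt1 was 0.67 higher in transgenic tissue, without overlap (exact permutation p = 0.1, the smallest possible, Benjamini-Hochberg adjusted p = 0.2 over 2 pairs). With Akt1 at background that value reads Akt2 alone, and whether the isoforms changed unequally cannot be read from this array.

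Tbc1d4, the GTPase-activating brake on GLUT4 vesicles and a target of AKT, read 59.7, 66.2 and 59.1 in wild type and 56.8, 52.1 and 48.9 in transgenic tissue. All wild type values exceeded all transgenic values, beside 17.4% of features that were lower without overlap, but only 1 transgenic array was above the background threshold. The difference of −0.23 (SE 0.09) did not pass (limma adjusted p = 0.136); with background subtracted it was −1.94 (SE 0.77, adjusted p = 0.179). A second Tbc1d4 probe read from 52.1 to 60.3 and was not kept, so the gene rests on readings close to background.

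Slc2a4, the gene of the insulin-responsive glucose transporter GLUT4, was higher on every transgenic array. Its only probe (Entrez Gene 20528) read 1013, 949 and 1211 on the wild type arrays and 1449, 1493 and 1672 on the transgenic arrays. The lowest transgenic array exceeded the highest wild type array, which was again array 3. The mean rose from 1058 ± 137 to 1538 ± 118 (SD, n = 3), a difference of 0.55 (SE 0.11, 95% interval 0.29 to 0.80, limma adjusted p = 0.0218), or 1.46-fold. By limma's p it ranked 538 of 11469 named genes. It did not keep its call when wild type array 2 (adjusted p = 0.079) or transgenic array 1, 2 or 3 (0.0531, 0.0727 and 0.0564) was left out, while the difference stayed between 0.47 and 0.65.

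Cav1, the gene of the caveolin that shapes adipocyte and endothelial caveolae, had the smallest p of the 8 genes. Its probe (Entrez Gene 12389) read 7694, 7151 and 8329 on the wild type arrays and 11498, 11270.4 and 11295 on the transgenic arrays. The transgenic arrays lay close together, well clear of wild type array 3. The mean rose from 7724 ± 589 to 11354 ± 125 (SD, n = 3), a difference of 0.56 (SE 0.09, 95% interval 0.36 to 0.76, limma adjusted p = 0.0145), or 1.47-fold, which ranked 122 of 11469 named genes by p. Cav1 was the only member whose call held in 5 of the 6 fits that leave out 1 array; without transgenic array 2 its adjusted p was 0.0534, and no feature on the array passed limma's test (3629 had an unadjusted p under 0.05).

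Gys1, the glycogen synthase of muscle and most other tissues outside liver, was higher by 2 of its 3 probes. The brightest (Entrez Gene 14936) read 142, 137 and 185 on the wild type arrays and 204, 209.8 and 237 on the transgenic arrays. The groups did not overlap, and wild type array 3 lay between the other wild type arrays and the transgenic arrays. The mean rose from 155 ± 26.2 to 217 ± 17.6 (SD, n = 3), a difference of 0.50 (SE 0.13, limma adjusted p = 0.0392), or 1.41-fold. The second probe read 139.6, 117 and 148 against 181, 181 and 175, a difference of 0.42 (SE 0.10, adjusted p = 0.0342 over all kept probes tested separately), and the third stayed between 40.7 and 47.2, below background. The call of the brightest probe was kept without wild type array 3 and lost in the other 5 single exclusions (adjusted p = 0.0833 and 0.139 for wild type arrays 1 and 2 and 0.0828, 0.107 and 0.104 for transgenic arrays 1, 2 and 3).

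**Figure D2:**
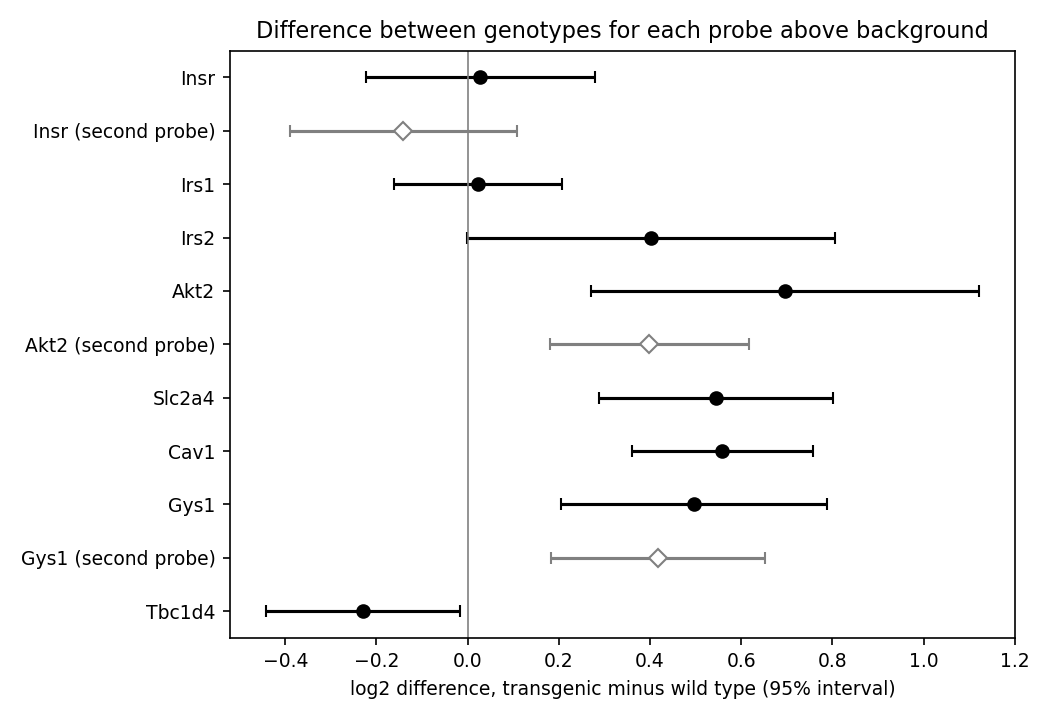
Log2 difference between the genotypes, transgenic minus wild type, with its 95% interval from limma, for the 11 kept probes of the 8 measured genes; filled circles are the probe that stands for a gene and open diamonds a second kept probe. Akt2, Slc2a4, Cav1 and Gys1 lie between 0.40 and 0.70 on all 6 of their kept probes, whereas Insr, Irs1 and Tbc1d4 lie near or below 0.

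Because background remains in the deposited intensities, folds of the dimmer probes are understated. After the background level was subtracted the folds were 1.71 for Akt2, 1.61 for Gys1, 1.48 for Slc2a4 and 1.48 for Cav1, but in that fit their adjusted p-values were 0.13, 0.112, 0.0947 and 0.0883, and 14 features in all passed. The 4 genes that rose were also the 4 members higher without overlap, beside 18.5% of all features.

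The promoters of the genes that rose are shown so that their sequence can be set beside this shared direction. RefSeq's table (GRCm38.p6) held a promoter for 7 of the 9 genes and for 3 of the 4 that rose; Slc2a4 and Insr had no entry. Each sequence runs from 250 bases before to 50 bases after the most upstream start listed, on the plus strand, at chr6:17306085-17306384 for Cav1, chr7:27591302-27591601 for Akt2 and chr7:45434589-45434888 for Gys1. Capitals mark the GC box, GGGCGG on either strand, the letters bound by Sp family factors.
Cav1: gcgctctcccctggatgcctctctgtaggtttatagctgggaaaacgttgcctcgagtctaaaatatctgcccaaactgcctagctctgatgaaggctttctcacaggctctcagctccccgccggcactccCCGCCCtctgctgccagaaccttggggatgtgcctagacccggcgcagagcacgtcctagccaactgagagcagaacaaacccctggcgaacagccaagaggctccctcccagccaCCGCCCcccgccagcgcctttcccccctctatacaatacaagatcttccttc
Akt2: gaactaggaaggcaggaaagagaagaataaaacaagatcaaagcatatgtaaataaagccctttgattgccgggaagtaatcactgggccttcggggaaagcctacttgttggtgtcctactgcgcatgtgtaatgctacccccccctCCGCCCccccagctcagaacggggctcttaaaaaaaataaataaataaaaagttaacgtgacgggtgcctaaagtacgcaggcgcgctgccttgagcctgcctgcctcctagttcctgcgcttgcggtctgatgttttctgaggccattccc
Gys1: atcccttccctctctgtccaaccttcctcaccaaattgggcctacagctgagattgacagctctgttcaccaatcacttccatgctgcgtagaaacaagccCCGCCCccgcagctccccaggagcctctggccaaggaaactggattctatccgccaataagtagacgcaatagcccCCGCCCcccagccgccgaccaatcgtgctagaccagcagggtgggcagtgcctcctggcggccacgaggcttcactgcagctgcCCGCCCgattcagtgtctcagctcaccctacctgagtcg
The GC box occurred 2 times in the printed Cav1 window, 1 time in that of Akt2 and 3 times in that of Gys1, and 35.9% of 32544 distinct promoter windows hold it. Akt2 has 4 promoters listed, Cav1 2 and Gys1 1, and none of the Akt2 and Cav1 windows not printed holds a GC box. The letters CCAAT, on either strand, occurred 4 times in the Gys1 window and in neither of the other printed windows, against 37.4% of all windows. CCAAT also occurred 1 time in the window of Akt2 start 3, not printed. TATAAA, on either strand, occurred 1 time, on the strand opposite to the letters printed for the Cav1 window (13.6% of all windows), and the E-box CACGTG in none of the 3 (7.17%). None of the 4 motifs contains another, and such matches describe the windows without showing that a factor binds there.

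For Slc2a4 the 5 named genes of most similar pattern among 11468 candidates, by the root mean square difference of log2 deviations from the 6-array mean, were Mmadhc (0.04), Gys1 (0.04), Rab34 (0.05), Fam181b (0.05) and Slc1a3 (0.06). Gys1, the second of these, is itself a member, and its deviations followed those of Slc2a4 on all 6 arrays, while Slc2a4 itself varied with an SD of 0.33. Mmadhc acts in cobalamin metabolism, Rab34 is a small GTPase and Slc1a3 a glutamate transporter. For Irs1, which varied with an SD of 0.05 at background, the nearest genes were Edil3, Mapk9, Slc30a7, Dock3 and Cdh1, and a likeness to readings at background carries little.

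Among the wild type arrays, array 3 was the highest for all 4 members that rose and for Irs2, thus for 5 of the 8 measured genes. The same held for 473 of the 765 features called higher (61.8%) and for 31.8% of all features. That array therefore stood nearest to the transgenic group for these genes, though for the 4 that rose it stayed below every transgenic array.

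**Figure D3:**
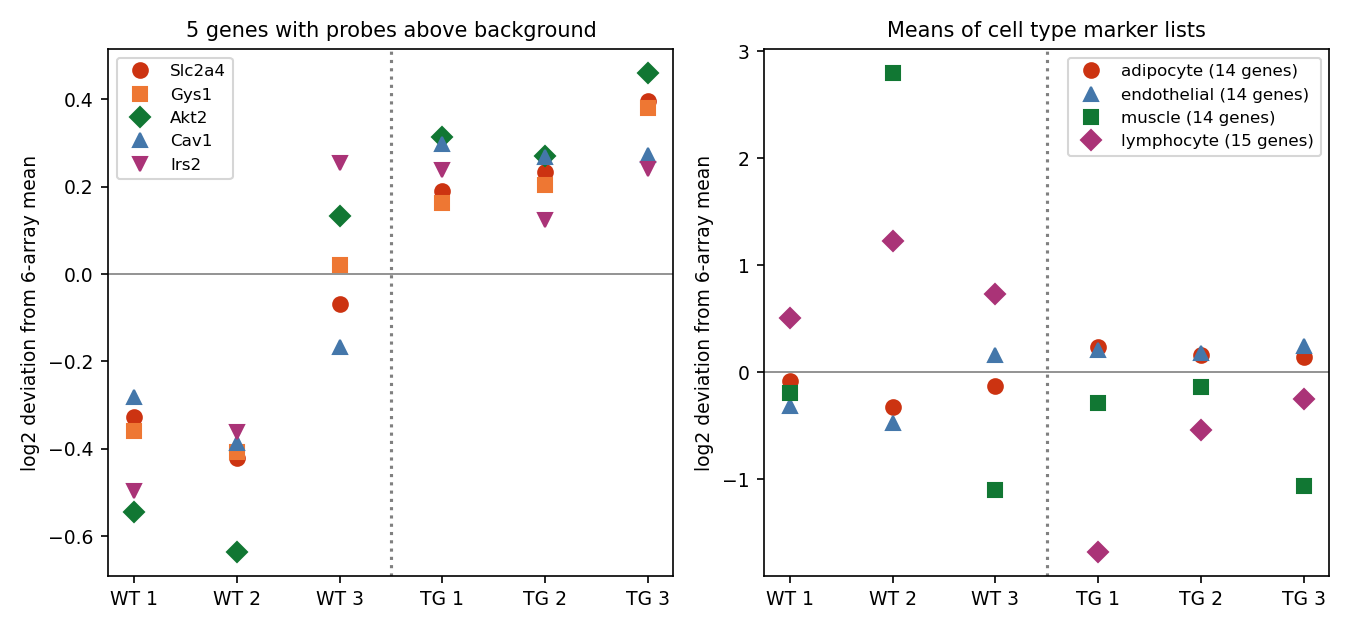
Log2 deviation from the 6-array mean on wild type (WT) and transgenic (TG) arrays 1 to 3, at left for Slc2a4, Gys1, Akt2, Cav1 and Irs2 and at right for the mean of 4 marker lists. Wild type array 3 lies between the groups for Slc2a4 and Gys1 and among the transgenic arrays for Irs2; at right it lies with the transgenic arrays in endothelial markers, and wild type array 2 stands apart in muscle markers.

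Markers of several cell types also differed between the groups, some upward and some downward. The summed intensity of 14 measured of 15 adipocyte markers on the array ran from 102499 to 115153 in wild type and from 126397 to 132721 in transgenic tissue, without overlap, and 7 of the 14 were called higher (median 0.29); Adipoq, Lep and Pparg were all bright, and Cd36 alone was not above background. In bulk tissue, a change in the number of cells of a type and a change in RNA per cell cannot be told apart. Relative to the mean of the adipocyte markers on the same array, Slc2a4 differed by 0.19 (exact permutation p = 0.2), Akt2 by 0.34 (p = 0.3), Gys1 by 0.14 (p = 0.4) and Irs2 by 0.04 (p = 0.9), each with overlap between groups. Cav1 differed by 0.20 without overlap (exact permutation p = 0.1). These were 5 of 6 such relations computed after the values were seen, and the lowest Benjamini-Hochberg adjusted p was 0.45. The adipocyte mean itself was 0.36 higher in transgenic tissue.

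Endothelial markers, 14 of 16 measured, summed to 11285 to 18460 in wild type and 18522 to 18689 in transgenic tissue, with wild type array 3 at 18460.3 and the others at 12192 and 11285. Of the 14, 2 were called higher and none lower (median 0.41; 7 higher at an unadjusted p under 0.05 in limma). Against their mean Cav1, which endothelial cells also express, differed by 0.14 with overlap (exact permutation p = 0.3). Skeletal muscle, which also uses Slc2a4, Akt2 and Gys1, was marked on 1 array: 14 of 19 muscle markers summed to 32946 on wild type array 2, with Acta1 at 4713, Ckm at 683 and Mylpf at 2518, and to between 3880 and 5879 on the other 5 arrays. Slc2a4, Akt2 and Gys1 read lowest on that array. The means of the adipocyte and endothelial markers were also lowest there (log2 deviations of −0.33 and −0.47). Lymphocyte markers, 15 of 17 measured, ran from 10903 to 18429 in wild type and from 3135 to 6525 in transgenic tissue, and 13 of the 15 fell. Macrophage markers (12 of 13) ran from 23219 to 27288 in wild type and from 18458 to 22392 in transgenic tissue. That sum is led by the bright lysozyme gene Lyz1, the 1 marker called lower (log2 −0.53), whereas 9 of the 12 had a difference above 0 (median 0.16; 5 higher and 3 lower at an unadjusted p under 0.05 in limma). Smooth muscle and pericyte markers (8 of 10) ran from 5334 to 6303 and from 5936 to 6351 with none called (2 higher at an unadjusted p under 0.05 in limma), and brown adipocyte markers (8 of 10) from 43467 to 45011 and from 32323 to 38407 with 3 lower. The part of these shifts in the changes of the 9 genes was not tested. The ratios to adipocyte and endothelial markers cannot settle it, since the exact permutation p of 3 against 3 arrays cannot fall below 0.1.

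The transgene's own gene, Cisd1, read 915 ± 132 in wild type and 1086 ± 23.4 in transgenic tissue (SD, n = 3; log2 0.26, SE 0.11, limma adjusted p = 0.163), without overlap. Over all features 765 were higher and 1236 lower. After subtracting from every array's log2 values their median over kept features only, 1117 were higher and 1086 lower.

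Around the members, 103 measured genes of 7 lists covering the rest of the pathway were examined in the same fit. Of these 6 rose (5.83%, beside 5.11% of all features) and 1 fell (0.971%, beside 8.26%), with a median of 0.06. The rises were in proximal signalling, caveolae, glycogen synthesis and an inositol transporter, and the fall was in a vesicle fusion gene.

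**Figure D4:**
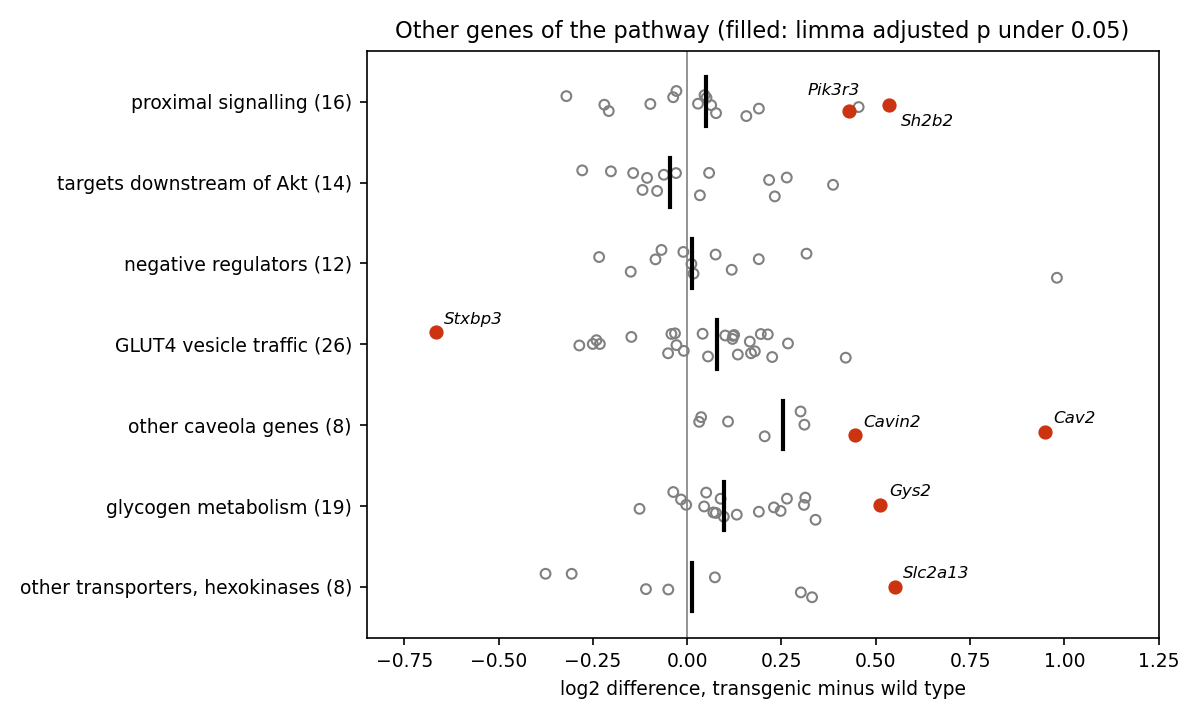
Log2 difference, transgenic minus wild type, of every measured gene in 7 lists of the insulin and GLUT4 pathway other than the members, with the number of genes in brackets; filled red points passed limma's test at an adjusted p under 0.05, and black bars are list medians. Pik3r3, Sh2b2, Cav2, Cavin2, Gys2 and Slc2a13 lie at the right and Stxbp3 at the left, and the medians of the other caveola genes (0.25) and glycogen genes (0.10) are the highest.

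In proximal signalling 2 of 16 measured genes rose and none fell (median 0.05; 3 higher and 3 lower at an unadjusted p under 0.05). Pik3r3, a regulatory subunit of phosphatidylinositol 3-kinase, had means of 221 ± 13.8 and 298 ± 29.6 (SD, n = 3), a rise of 1.35-fold (log2 0.43, SE 0.10, limma adjusted p = 0.0316). Sh2b2, an adaptor that binds the activated insulin receptor, rose 1.45-fold (adjusted p = 0.032). A second kept probe of each gene differed less, by 0.24 and 0.09, and did not pass. Pik3r1, the main regulatory subunit in most tissues, differed by 0.45 without overlap (adjusted p = 0.0988), and another of its 3 kept probes passed when probes were tested separately (log2 0.63, adjusted p = 0.024). Rictor, a subunit of the complex that phosphorylates AKT, differed by −0.32 (adjusted p = 0.116). Pik3r3 lost its call in 4 of 6 single exclusions (adjusted p up to 0.115) and Sh2b2 in 5 (up to 0.112).

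Downstream of AKT none of 14 measured genes passed in limma (2 higher at an unadjusted p under 0.05; median −0.05). Srebf1, a transcription factor gene of lipid synthesis that insulin induces in liver, was nearest with 0.39 (adjusted p = 0.0501), its 3 transgenic arrays all above the wild type arrays. The same probe passed when kept probes were tested separately (adjusted p = 0.048) and without wild type array 3 (0.0366). Eif4ebp1, the translation repressor, differed by 0.22, Rheb, the activator of mTORC1, by 0.23 and Bad, a cell death regulator, by 0.26. Among negative regulators none of 12 passed (1 higher at an unadjusted p under 0.05; median 0.01). Cish, a cytokine-induced inhibitor, had the widest difference, 0.98 (SE 0.32, adjusted p = 0.0741), with wild type array 3 at 1939 above transgenic array 1 at 1669. Grb10 and Grb14, which bind and inhibit the insulin receptor, differed by 0.19 and 0.32, and Socs3 by −0.23. A second Grb10 probe differed by 0.53 (adjusted p = 0.0171 over kept probes tested separately), so the 2 probes of that gene gave different calls.

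Among GLUT4 traffic genes 1 of 26 passed. Stxbp3 (Munc18c), which binds the syntaxin that docks GLUT4 vesicles, read 174, 238 and 175 in wild type and 107, 133 and 127 in transgenic tissue. It fell 1.59-fold without overlap (log2 −0.67, SE 0.14, limma adjusted p = 0.0236), opposite in direction to Slc2a4, and lost its call without wild type array 2, transgenic array 1 or transgenic array 2 (adjusted p up to 0.075). Rab5a, a GTPase of early endosomes, differed by 0.42, Sort1, the sorting receptor sortilin, by 0.27 and Tbc1d1, the relative of Tbc1d4 best known in muscle, by −0.29, none of which passed on its brightest probe. When probes were tested separately 2 other Sort1 probes (0.45 and 0.51, adjusted p = 0.0498 and 0.0379) and another Rab5a probe (0.32, adjusted p = 0.0342) passed. The median of the list was 0.08.

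Of the other caveola genes 2 rose, as Cav1 did. Cav2, the partner of caveolin-1, read 1177, 1137 and 1886 in wild type and 2469, 2914 and 2516 in transgenic tissue. It rose 1.93-fold without overlap (log2 0.95, SE 0.19, limma adjusted p = 0.0197), with wild type array 3 once more the highest of its group. Cavin2, a coat protein of caveolae, rose 1.36-fold (adjusted p = 0.0403). Ehd2, at the caveola neck, differed by 0.30 and Cavin1, the main coat protein, by 0.31 on their brightest probes, which did not pass; 2 of the other 3 Ehd2 probes (0.45 and 0.66) and the other Cavin1 probe (0.44) passed when probes were tested separately. Differences of the 8 measured genes ran from 0.03 to 0.95, with a median of 0.25 beside 0.03 over all features. Of the 8, 2 were called higher and none lower, beside 5.11% and 8.26% of all features. Cav2 lost its call in 3 of 6 single exclusions (adjusted p up to 0.0744) and Cavin2 in 5 (up to 0.14).

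Among 19 measured glycogen genes 1 rose and none fell (median 0.10; 4 higher at an unadjusted p under 0.05). Gys2, the glycogen synthase best known in liver, rose from 753 ± 122 to 1065 ± 36.5 (SD, n = 3; log2 0.51, SE 0.12, limma adjusted p = 0.0339), 1.43-fold and close to the 1.41-fold of Gys1. Its second probe differed by 0.49 (adjusted p = 0.0701 over kept probes tested separately). Pygb, a glycogen phosphorylase, differed by 0.34, Pgm1, which interconverts glucose phosphates, by 0.26 and Nhlrc1, a ubiquitin ligase of glycogen quality control, by 0.31, none past the threshold. Among 8 measured glucose transporter and hexokinase genes other than Slc2a4, Slc2a13, a proton-coupled inositol transporter, rose 1.46-fold (adjusted p = 0.0448). Slc2a1 and Slc2a3, the basal transporters GLUT1 and GLUT3, had differences of −0.31 and −0.38 that did not pass (adjusted p = 0.136 and 0.124), and Slc2a8 differed by 0.33 (0.124). Another Slc2a8 probe passed when probes were tested separately (0.33, adjusted p = 0.0306), and the second Slc2a13 probe did not (0.46, adjusted p = 0.0747). Gys2 lost its call in 4 of 6 single exclusions (adjusted p up to 0.113) and Slc2a13 in 5 (up to 0.114).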

How the data were processed

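RNA of 6 samples of subcutaneous fat was extracted, cleaned, labelled with biotin and hybridised to Illumina bead arrays, per the labels' protocols. The authors deposited intensities on a linear scale. Software and normalization were not given in the sources used here. By their values these intensities are quantile-normalized, with sorted columns within 0.157 of each other, and still hold background, with a lowest value of 32.4. A scanner table went unused, since its 24 columns of per-array values match no sample's label.

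From the deposited intensities log2 values were computed. The background level is the mode of all log2 values and the threshold lies above it by a fixed multiple of the spread of the values below the mode, which kept 22037 of 45281 probes. Features were 11469 named genes and 3493 probes without a single gene listed (34885 probes had 1 gene symbol, 18 several and 10378 none; 34807 Entrez identifiers matched a GRCm38.p6 gene table). limma 3.58.1 in R 4.3.3 (lmFit, eBayes) compared the genotypes without covariates, with Benjamini-Hochberg adjustment at 0.05. On simulated data it called 34.7% of features changed by 0.5 and 85.3% of those changed by 1 among 14962, and 11 of its 132 calls were unchanged features. The simulation changed 200 features and drew noise independently for each, without the patterns that features share across these arrays. Its rates need not hold for the real comparison. Alternatives covered the filter, the choice of probe, an offset, background subtraction, centring, the variance model, a replicate block, array weights, other thresholds and arrays left out.

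The members, lists and tests were chosen with earlier results of these data known. The text names every member, and in each list the 4 genes of smallest p and any further call (at most 4). It also names the nearest genes to Slc2a4 and Irs1, Cisd1, defining markers and some dim or bright markers. The marker ratios, and the exclusion of wild type array 3 with transgenic array 2, were added after the values were seen. No coordinates of probes are given, as no build is stated for the array.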

Additional observations from a re-analysis of the deposited data

How the results depend on the processing

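With all 6 arrays kept, the 4 calls among the members were the same under most settings, whereas no exclusion of arrays left 4. No filter, the threshold exceeded on all 6 arrays or on at least 1, all probes separately and the mean of a gene's probes all left 4. An added offset, centring, both variance settings, array weights and the replicate block also left 4, as did a threshold of 0.1. The count of members called ran from 0 to 5 with 1 array left out, that of all features from 0 to 2147 and that of the 7 lists together from 0 to 9. Without transgenic array 2 no member and no feature passed limma's test (4 members and 3629 features had an unadjusted p under 0.05). Leaving out wild type array 2 and transgenic array 1 gave 0 members (4 at an unadjusted p under 0.05) and 317 features, and leaving out wild type array 3 and transgenic array 2 gave 1 member and 82 features. With background subtracted 0 members (5 at an unadjusted p under 0.05) and 14 features passed, and at a threshold of 0.01 0 members and 0 features (5 and 4708 unadjusted); at 0.1 there were 3450 features. Apart from the changed threshold itself, the cause of these shifts in counts was not tested. Each single exclusion left the same number of arrays. The features passing ran from 0 without transgenic array 2 to 2147 without wild type array 3, beside 2001 with all 6 arrays. Every setting kept the differences of Akt2, Slc2a4, Cav1, Gys1 and Irs2 above 0, and that of Tbc1d4 was below 0 in all but the filter on all 6 arrays, where it was not measured; it was −1.94 with background subtracted. Insr, near 0, went to −0.0564 with the mean of its probes, −0.0198 and −0.0477 with those pairs of arrays left out, and from −0.0475 to 0.129 with 1 array left out; Irs1 went to −0.0275 without wild type array 3 and transgenic array 2 and from −0.00901 to 0.0564 with 1 array left out. Centring moved the median of all features from 0.03 to 0.06 and the share of calls that were higher from 38.2% to 50.7%. Same-numbered arrays showed no clear pairing: their deviations from the group means correlated by 0.41, 0.22 and −0.03. Wild type array 2 (0.23 with transgenic array 3) and wild type array 3 each correlated best with another number. With the replicate block 4 members and 2391 features passed. Its SE was smaller for Akt2 (0.13, from 0.19), Slc2a4, Gys1 and Irs2, and larger for Insr, Irs1, Cav1 and Tbc1d4. Irs1, Tbc1d4 and Akt1 are limited by signal at background.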
